A study of Mus musculus with 10 samples.

Results

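The transcription factors followed here belong to endothelial and blood-forming cells, and their transcripts were measured in lymphatic endothelial cells (LEC) of mouse melanoma. They are 5 ETS factors, Erg, Fli1, Ets1, Ets2 and Elk3, and 5 haematovascular factors, Tal1, Lyl1, Lmo2, Hhex and Zbtb46. They were taken by gene symbol from the deposited gene table, and each of the 10 symbols matched 1 of its 23510 rows. The libraries came from C57BL/6N mice that carried implanted fragments of the melanoma MT-ret on the flank and had been given 1 of 2 antibodies by intraperitoneal injection 12 hours before death: control IgG or an antibody against angiopoietin-2 (anti-Ang2), which vessel cells secrete and which binds Tie2, the product of Tek. Tumour LEC were sorted by flow cytometry and total RNA was sequenced from 5 mice per treatment, 1 library per mouse (n = 5 per group throughout). The labels give neither the markers of the sort gate nor the age or sex of the mice, and all mice bore a tumour, so the comparison is between 2 antibodies within tumour-bearing mice.

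ETS factors share a DNA-binding domain that reads a GGAA core, and endothelial enhancers and promoters carry many such sites. Erg and its close paralogue Fli1 are known for keeping endothelial cells in their identity, Ets1 and Ets2 act downstream of growth factor and MAP kinase signals, and Elk3 (also called Net) is a partner of serum response factor that can repress transcription and whose loss in mice is known to impair lymphatic vessels. Tal1 and its paralogue Lyl1 are basic helix-loop-helix proteins that pair with E proteins and are joined to GATA factors by the bridging proteins Lmo2 and Ldb1, an assembly used in early blood and endothelial development. Hhex is a homeobox factor of endothelial and blood progenitors, and Zbtb46 is a zinc finger factor best known as a marker of classical dendritic cells that endothelial cells also express.

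The libraries held 38090933 to 83850341 gene counts. The LEC markers Prox1, a lineage factor, and Lyve1, a hyaluronan receptor, were abundant in all of them. Prox1 held 979.7 to 1390.0 CPM and Lyve1 4305.0 to 6187.0 CPM (CPM, counts scaled to library size with TMM factors). The summed CPM of 12 melanoma markers ran from 269 to 1869 in IgG and from 1139 to 5603 in anti-Ang2 libraries, with the 3 highest sums in anti-Ang2 1, 2 and 3 (exact permutation test, two-sided, p = 0.0476; 0.107 after adjustment over 9 marker lists). That of 15 macrophage and monocyte markers ran from 79.5 to 238.7 and from 143.0 to 370.0 (exact p = 0.0317, adjusted 0.0952), and that of 9 T and B cell markers from 23.1 to 34.4 and from 12.9 to 25.2 (exact p = 0.0159, adjusted 0.0952). A sum of 12 markers of blood vessel endothelium, most of it Plvap, was 3822 to 5901 CPM in IgG and 2552 to 4905 CPM after anti-Ang2 (exact p = 0.0238, adjusted 0.0952). Its members did not move one way: 6 of the 12 had positive and 6 negative log2 fold changes, with Esm1 called higher (1.45, edgeR adjusted p = 0.00857), Gja4 called lower (-1.23, 0.0153) and Plvap at -0.86 (0.0540). The other 11 markers without Plvap, a sum chosen after the values were seen, averaged 1154 ± 152 and 1122 ± 303 CPM. The fibroblast and mural sum was 223 to 701 and 431 to 1014 CPM (exact p = 0.278). Its members went both ways and none was called. In IgG and anti-Ang2, Dcn averaged 144 and 332 CPM and Cspg4 53.2 and 172 CPM, against 91.9 and 22.65 CPM for Col1a1 and 67.5 and 12.9 CPM for Col1a2. The LEC sum itself was 16200.0 to 19360.0 and 13370.0 to 18440.0 CPM (exact p = 0.198). Its members went both ways. The chemokine Ccl21a was called lower, with means of 883 and 379 CPM (-1.22, edgeR adjusted p = 0.00447). Prox1, Pdpn, Flt4 and Mmrn1 had negative and Lyve1 and Reln positive log2 fold changes that did not pass. The melanoma and macrophage sums were entered as covariates; the part of the others in the results was not tested.

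After anti-Ang2, Elk3, Zbtb46 and Erg were lower, and no factor of the 10 was called higher. All 10 passed the filter on low counts, with 252 to 62288 counts per library, and none depended on 1 group to pass it. With the edgeR quasi-likelihood test and Benjamini-Hochberg adjustment over 16240 genes, an adjusted p below 0.05 counted as a call, which 4.13% of the genes reached in all, 2.80% as lower and 1.34% as higher. Among the factors 3 of 10 were called lower and 0 higher, and 7 of 10 log2 fold changes were negative, with a median of -0.19 against 0.01 over all tested genes. For 4 of the 10, Elk3, Zbtb46, Erg and Lyl1, the ranges of the IgG and anti-Ang2 libraries were separate, where the share over all tested genes was 6.10%. The 10 factors were chosen with earlier results of these data known, so these counts describe them and are not independent support. In bulk RNA, fewer cells that make a transcript and less of it per cell cannot be told apart.

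**Figure D1:**
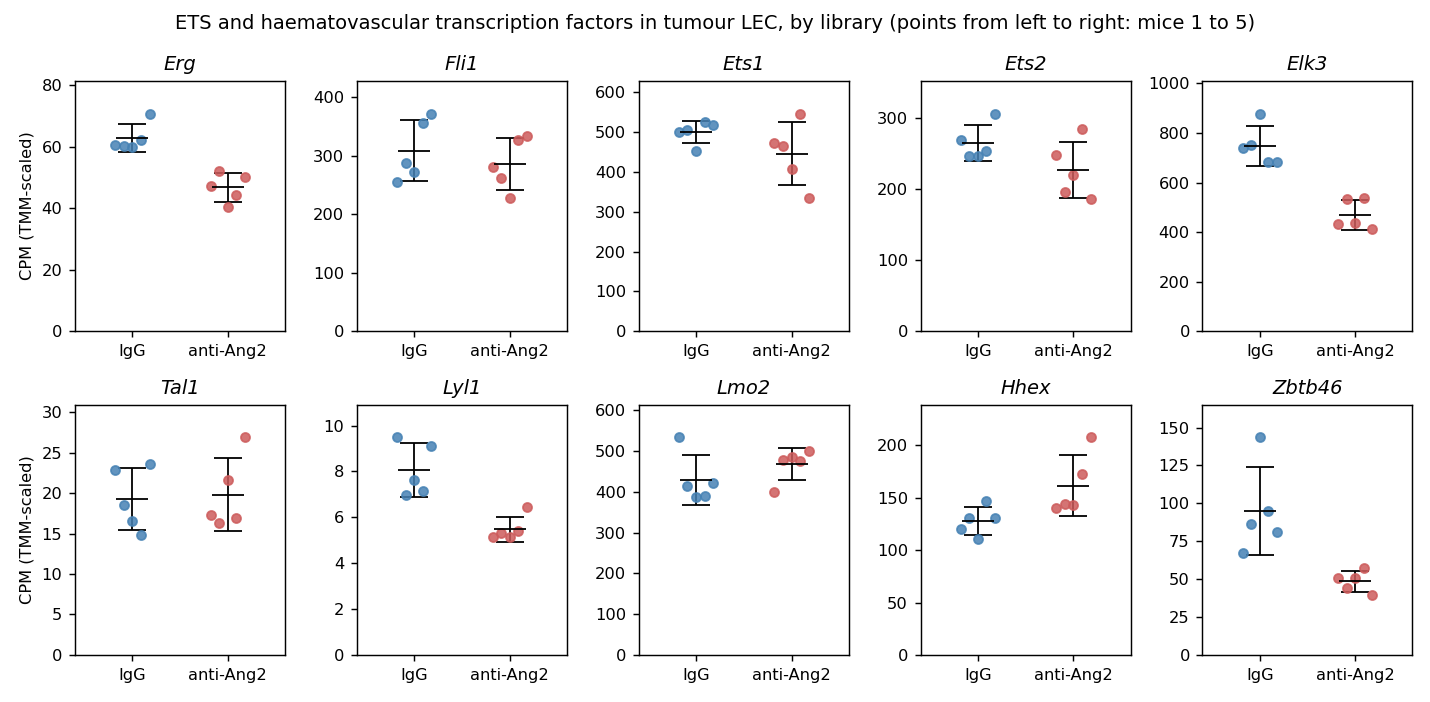
CPM of the 10 factors in each library (y axis, from 0), IgG in blue and anti-Ang2 in red, 1 point per mouse, with the mean and SD as black bars. The 5 anti-Ang2 libraries lie below every IgG library in Elk3, Zbtb46, Erg and Lyl1 and overlap with IgG in the other 6 panels.

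Elk3 was the most abundant ETS transcript of these cells and had the lowest adjusted p of the 10. The IgG libraries held 739.6, 752, 878, 681 and 684.5 CPM and the anti-Ang2 libraries 432, 535, 438, 537.5 and 411 CPM. Every anti-Ang2 library thus lay below the lowest IgG library, and IgG 3 was the highest of the control group. The means were 747 ± 79.8 and 471 ± 60.8 CPM (SD), a 1.59-fold lower level, with a log2 fold change of -0.67 ± 0.11 (SE) and an adjusted p of 0.00500 by edgeR. The call held without any single library (log2 fold change -0.72 to -0.60, adjusted p at most 0.0179). It was lost once the melanoma sum (-0.57 ± 0.15, adjusted p = 0.120) or the macrophage sum (-0.67 ± 0.16, 0.146) entered the fit. The same held without anti-Ang2 1, 2 and 3 (-0.67 ± 0.14, 0.0736). With the macrophage sum and without anti-Ang2 1, 2 and 3, the size was kept and the SE was wider. Of the 4550 exon bases of Elk3 in the GENCODE annotation, 316 are shared with the oppositely oriented Cdk17. The library kit does not mark strand, so reads of these bases cannot be assigned, and Cdk17 itself averaged 171 CPM under IgG against 147 CPM under anti-Ang2 (log2 fold change -0.22, adjusted p = 0.0641).

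Zbtb46 had the largest change of the 10. The IgG libraries held 67.5, 86.1, 143.5, 94.7 and 81.3 CPM and the anti-Ang2 libraries 50.5, 43.8, 50.9, 57.5 and 39.4 CPM. IgG 3 stood highest here too, and the lowest IgG library still lay above all anti-Ang2 libraries. The means were 94.6 ± 29.1 and 48.4 ± 7.00 CPM, a 1.95-fold lower level (log2 fold change -0.97 ± 0.19, adjusted p = 0.0138 by edgeR). Without IgG 3 the log2 fold change was -0.77 and the call held, as it did without any other single library (adjusted p at most 0.0392). Adjusted for the melanoma sum, it was -0.83 ± 0.26 (adjusted p = 0.202), for the macrophage sum -0.98 ± 0.30 (0.270), and without anti-Ang2 1, 2 and 3 it was -0.97 ± 0.30 (0.158). Dendritic cells are the blood cells known for Zbtb46, and the summed CPM of 10 of their markers ran from 21.2 to 241 in IgG and from 94.8 to 440.5 in anti-Ang2 libraries (exact permutation p = 0.429). Most of this sum was the antigen presentation genes Cd74, H2-Ab1 and H2-Aa, with Cd74 reaching 292 CPM in 1 library. Of the more specific markers, Clec9a (2.39 and 1.59 CPM in mean, log2 fold change -0.59, edgeR adjusted p = 0.553) and Batf3 (0.887 and 1.51 CPM) had counts in all 10 libraries, while Flt3 and Itgax had 0 counts in 7 and Xcr1 and Cd209a in 6. The part of dendritic cells in the Zbtb46 result was not tested.

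Erg fell by a smaller but tight margin. The IgG libraries held 60.5, 60.3, 59.85, 62.1 and 70.7 CPM and the anti-Ang2 libraries 47.2, 52.0, 40.2, 44.2 and 50.1 CPM. The groups were separate, with 4 of the 5 IgG libraries between 59.85 and 62.1 CPM and IgG 5 above them. The means were 62.7 ± 4.56 and 46.7 ± 4.69 CPM, a 1.34-fold lower level (log2 fold change -0.42 ± 0.09, adjusted p = 0.0221 by edgeR). This call was close to the threshold: it was missed without IgG 3 (adjusted p = 0.0506), IgG 5 (0.0565), anti-Ang2 3 (0.0535) or anti-Ang2 4 (0.0501), at log2 fold changes of -0.44, -0.38, -0.37 and -0.40. Adjusted for the melanoma sum, the value was -0.40 ± 0.13 (adjusted p = 0.211), for the macrophage sum -0.30 ± 0.12 (0.439) and for both -0.29 ± 0.15 (0.529), and without anti-Ang2 1, 2 and 3 it was -0.42 ± 0.11 (0.111).

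The remaining ETS members did not pass. Fli1, the paralogue of Erg, held 254, 287, 272, 355 and 372 CPM in IgG and 280.4, 262, 227, 327.5 and 333 CPM in anti-Ang2 libraries, so that both groups covered much the same range. The 95% interval of its fold change was 0.755 to 1.14 (adjusted p = 0.765 by edgeR). Ets1 averaged 500.3 ± 28.8 and 445 ± 79.0 CPM (interval 0.745 to 1.06, adjusted p = 0.509), with anti-Ang2 5 lowest at 335.0 CPM and anti-Ang2 4 highest of all libraries at 546 CPM. Ets2 averaged 264 ± 25.3 and 227.0 ± 39.8 CPM (interval 0.717 to 1.03, adjusted p = 0.377), with 3 anti-Ang2 libraries below every IgG library. An adjusted p above the threshold does not show that these 3 genes were equal between the groups.

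**Figure D2:**
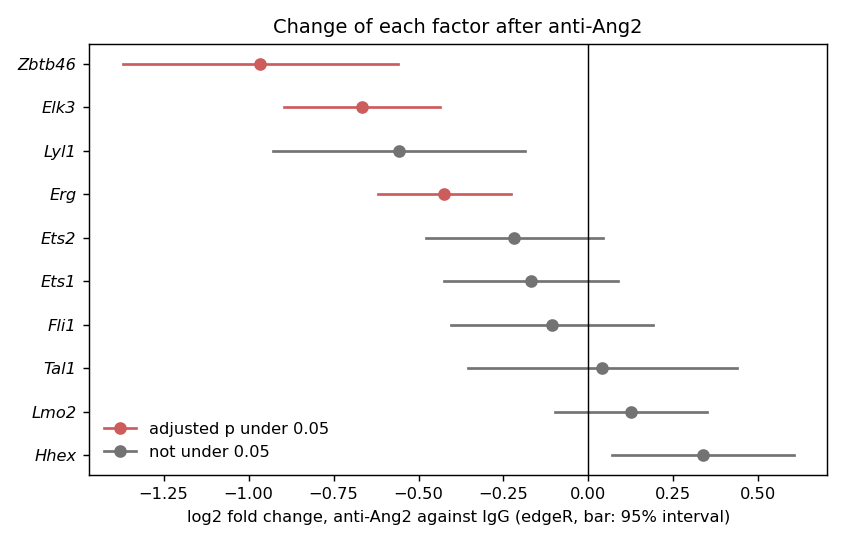
Log2 fold change of each factor, anti-Ang2 against IgG (x axis), by edgeR, as a point with its 95% interval, red where the adjusted p was under 0.05. Zbtb46, Elk3 and Erg lie to the left of 0 from -0.97 to -0.42, and Hhex lies farthest to the right at 0.34.

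Among the haematovascular factors, Lyl1 was the one whose groups separated without a call. It held 9.49, 6.97, 7.63, 7.13 and 9.13 CPM in IgG and 5.15, 5.30, 5.13, 5.39 and 6.43 CPM in anti-Ang2 libraries. All 5 anti-Ang2 libraries were below the lowest IgG library. Its log2 fold change was -0.56 ± 0.17 (adjusted p = 0.0939 by edgeR). DESeq2 called it (adjusted p = 0.00530, where 5.94% of genes with an adjusted p were called lower), as did limma-voom with quality weights (0.0453), and in the authors' deposited table its adjusted p was 0.00634. Adjusted for the melanoma sum, its value was -0.34 ± 0.22 (adjusted p = 0.568), and for the macrophage sum -0.56 ± 0.24 (0.478). Its exons share 4 bases with Nfix on the other strand.

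Tal1 was flat, at 22.9, 18.6, 16.6, 14.8 and 23.6 CPM in IgG and 17.3, 16.4, 21.6, 16.9 and 26.9 CPM in anti-Ang2 libraries, with overlapping groups (log2 fold change 0.04 ± 0.18, adjusted p = 0.942 by edgeR, interval of the fold change 0.782 to 1.35). Lmo2, its bridging partner, averaged 429 ± 60.2 and 468 ± 39.1 CPM (adjusted p = 0.590, interval 0.934 to 1.27). IgG 1 was the highest Lmo2 library at 534 CPM and anti-Ang2 1 the lowest treated one at 399.8 CPM. Among markers of blood cells that can make these factors, the erythroid sum was 1.58 to 12.5 CPM in IgG and 1.79 to 4.99 CPM in anti-Ang2 libraries, and the platelet and megakaryocyte sum 27.8 to 77.7 and 15.5 to 70.2 CPM. Their part in the Tal1, Lyl1 and Lmo2 values was not tested.

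Hhex leaned the other way. It held 119.7, 130.3, 110.6, 147 and 131 CPM in IgG and 140.1, 144, 143, 172.5 and 208 CPM in anti-Ang2 libraries, where 2 libraries lay above every IgG library and all 5 above the IgG mean. The log2 fold change was 0.34 ± 0.12 and did not pass (adjusted p = 0.162 by edgeR), although its unadjusted 95% interval, 1.05-fold to 1.52-fold, left out 1. The highest library was anti-Ang2 5, without which the value was 0.23, and it was 0.14 without anti-Ang2 4 and 5 and 0.56 without anti-Ang2 1, 2 and 3.

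The positions of the factors pair some of them in the genome. In mm10, Erg (ENSMUSG00000040732.18) occupies bases 95359169 to 95586593 of chromosome 16, minus strand, and Ets2 (ENSMUSG00000022895.14) on the plus strand from 95702075 to 95721051, 115481 bases away with 0 annotated genes between them. Fli1 (ENSMUSG00000016087.13) at 32422204 to 32542861 of chromosome 9, minus strand, and Ets1 (ENSMUSG00000032035.15) on the plus strand from 32636221 to 32757820 form a like pair, 93359 bases apart with 0 protein-coding genes between them. Elk3 (ENSMUSG00000008398.14) spans chromosome 10 from 93247414 to 93311135 on the minus strand, and Zbtb46 (ENSMUSG00000027583.13) chromosome 2 from 181387762 to 181459426 on the minus strand. Each span covers the whole annotated gene with its exons, introns and untranslated regions.

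RefSeq promoter windows (GRCm38.p6) were found for 7 of the 10 factors, 10 windows in all. They are shown here, as the 250 bases before the start site, for the 3 factors that fell. Capitals mark each GGAA, the ETS core, or its reverse complement TTCC, searched on both strands. Erg is shown at its upstream start and at the start 127245 bases into the gene.
Elk3, chr10:93311160-93311409, minus strand: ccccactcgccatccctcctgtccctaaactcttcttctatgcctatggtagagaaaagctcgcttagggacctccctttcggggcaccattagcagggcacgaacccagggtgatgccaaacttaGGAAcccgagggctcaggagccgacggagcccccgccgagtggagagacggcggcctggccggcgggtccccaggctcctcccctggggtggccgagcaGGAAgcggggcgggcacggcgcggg
Erg, upstream start, chr16:95586594-95586843, minus strand: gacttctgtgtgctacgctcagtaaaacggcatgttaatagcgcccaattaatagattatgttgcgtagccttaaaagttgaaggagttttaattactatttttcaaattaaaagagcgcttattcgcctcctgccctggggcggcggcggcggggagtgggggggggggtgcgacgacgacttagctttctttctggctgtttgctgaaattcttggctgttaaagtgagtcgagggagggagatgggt
Erg, internal start, chr16:95459349-95459598, minus strand: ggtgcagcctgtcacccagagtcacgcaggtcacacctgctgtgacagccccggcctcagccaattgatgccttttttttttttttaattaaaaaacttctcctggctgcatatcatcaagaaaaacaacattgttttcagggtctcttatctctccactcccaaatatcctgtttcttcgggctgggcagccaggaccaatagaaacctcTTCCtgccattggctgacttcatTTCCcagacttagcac
Zbtb46, chr2:181424389-181424638, minus strand: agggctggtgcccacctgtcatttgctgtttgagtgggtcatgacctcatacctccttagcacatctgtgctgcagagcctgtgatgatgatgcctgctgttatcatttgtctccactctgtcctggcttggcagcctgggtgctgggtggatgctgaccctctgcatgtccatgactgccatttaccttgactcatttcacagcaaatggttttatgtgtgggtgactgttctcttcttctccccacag
The Elk3 window held 2 GGAA cores, the Erg windows 0 and 2 (and 4 in an Erg window not shown, 56228 bases into the gene), and the Zbtb46 window 0. The Zbtb46 start of RefSeq lies 35038 bases inside the GENCODE gene, and its window ends in a run of c and t before ag, as introns do. The Erg window 56228 bases into the gene also ends in ag. Counts in these windows may therefore not describe a promoter, and the start sites used by these cells were not tested. GGAA is short and was present in 93.4% of 32851 promoter windows of this length. The longer CCGGAA was in 12.0% of them and in none of the 4 shown. The core read by GATA2 and its relatives, searched as GATAAG, was in 6.55% of all windows and once in the internal Erg window, as its reverse complement. In the window of Lyl1, the factor whose groups separated without a call, GGAA was found 5 times and CCGGAA 2 times, the latter overlapping the former. A match is only a run of letters in the window.

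Levels of different genes were compared per length, in the FPKM deposited by the authors. In IgG libraries the order was Lmo2 (204.0 ± 32.1 FPKM, SD), Elk3 (169 ± 18.4), Fli1 (90.8 ± 14.4), Hhex (68.5 ± 7.84), Ets1 (60.7 ± 3.92), Ets2 (57.6 ± 4.76), Erg (18.6 ± 1.02), Zbtb46 (11.4 ± 3.47), Lyl1 (4.61 ± 0.674) and Tal1 (4.52 ± 0.881). The ranges of neighbours overlapped from Lmo2 to Elk3, from Fli1 to Hhex, from Hhex to Ets1 to Ets2 and from Lyl1 to Tal1, and did not between the other neighbours. Hhex depended on the gene length used: per kilobase of all annotated exons (5056 bases in GENCODE M21) it held rank 6 and not 4, while the others kept their order relative to each other. In anti-Ang2 libraries Elk3 stood at 108 ± 13.1 FPKM and Zbtb46 at 5.95 ± 0.959 FPKM, and Hhex (88.1 ± 18.1) and Fli1 (85.9 ± 15.7) were close.

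Within the whole ETS family of 26 genes, summed FPKM were 509 ± 11.5 in IgG and 434 ± 41.5 in anti-Ang2 libraries. The 5 ETS members took 77.9 ± 0.962% of that sum in IgG and 72.0 ± 2.08% in anti-Ang2 libraries. Elk3 alone made up 33.2 ± 3.87% and 24.8 ± 1.49%, without overlap between the groups, while Fli1 took 17.8% and 19.8% and Erg 3.65% and 3.26%. As shares sum to a fixed total, a lower share of 1 gene raises the others.

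**Figure D3:**
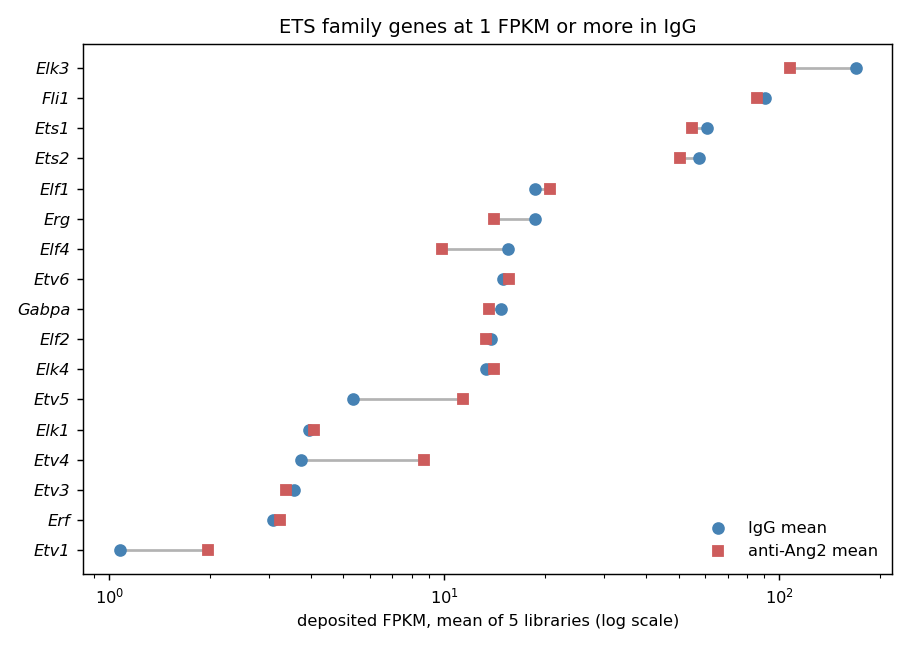
Deposited FPKM of the 17 ETS family genes at 1 FPKM or more in IgG (x axis, log scale), group means as blue circles (IgG) and red squares (anti-Ang2). Elk3 is highest in both groups and moves left from 169 to 108 FPKM, as does Elf4 from 15.5 to 9.82 FPKM, and Etv4 and Etv5 lie to the right after anti-Ang2.

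Of the other 21 ETS genes, 14 passed the filter, 1 was called lower and 0 higher, with a median log2 fold change of 0.05. The shares over all tested genes were 2.80% lower and 1.34% higher, with a median of 0.01. Elf4, a factor known for keeping T cells quiescent, fell from 92.8 ± 10.2 CPM under IgG to 57.8 ± 8.13 CPM (-0.68 ± 0.11 on the log2 scale, edgeR adjusted p = 0.00649) and was at -0.47 ± 0.13 (0.146) adjusted for the melanoma sum. The PEA3 group, whose transcripts are known to follow growth factor and ERK signals, had positive values that did not pass: Etv4 went from 11.3 to 26.2 CPM (1.21 ± 0.33, adjusted p = 0.0637), Etv5 from 21.2 to 45.2 CPM (1.09 ± 0.36, 0.120) and Etv1 from 6.14 to 11.2 CPM (0.86 ± 0.32, 0.177). Without anti-Ang2 5, 2 of the other ETS genes were called higher. The myeloid ETS factor Spi1 was at 1.23 and 2.29 CPM. The melanoma sum was 983 ± 767 and 3408 ± 1907 CPM. The macrophage, dendritic cell and fibroblast sums were also higher in mean after anti-Ang2, and the other marker sums were lower. The part of any of these in the PEA3 values was not tested.

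Among 28 partners and relatives of the Tal1 complex, 22 were tested, 2 were called higher and 2 lower, with a median log2 fold change of 0.19. Of all tested genes 1.34% were called higher and 2.80% lower, with a median of 0.01. Cbfa2t3, a corepressor found in Tal1 complexes, fell from 102 CPM under IgG to 62.8 CPM (-0.70 ± 0.10 on the log2 scale, edgeR adjusted p = 0.00344), and the endothelial GATA factor Gata2 from 182 to 137 CPM (-0.41 ± 0.10, 0.0401). The E protein Tcf12, which can pair with Tal1, rose from 123.5 to 183 CPM (0.57 ± 0.14, adjusted p = 0.0447), and the runt factor Runx2 from 1.45 to 4.76 CPM (1.71 ± 0.29, 0.00698). The other E proteins, Tcf3 (0.26, adjusted p = 0.146) and Tcf4 (0.22, 0.189), and the bridging protein Ldb1 (0.17, 0.162) had positive values that did not pass. Gata2 missed the threshold without any one of 7 libraries (adjusted p up to 0.110) and Tcf12 without any one of 8 (up to 0.114). Adjusted for the melanoma sum, Cbfa2t3 was at -0.47 ± 0.11 (adjusted p = 0.0927), Runx2 at 1.34 ± 0.37 (0.149), Tcf12 at 0.26 ± 0.15 (0.491) and Gata2 at -0.29 ± 0.13 (0.388), each closer to 0. For the macrophage sum, Cbfa2t3 was at -0.69 ± 0.15 (0.123), Runx2 at 1.98 ± 0.46 (0.146), Tcf12 at 0.47 ± 0.21 (0.508) and Gata2 at -0.30 ± 0.14 (0.545). The blood GATA factor Gata1 was too low to be tested.

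Of 28 endothelial genes known as ETS targets, all tested, 7 were called lower and 1 higher, with a median log2 fold change of -0.28. Over all tested genes 2.80% were called lower and 1.34% higher, with a median of 0.01. The list was written from textbook knowledge, not from binding data of these cells, and with earlier results of these data known. Its counts are therefore a description and not independent support. She, an adaptor protein of endothelium, fell from 328 ± 32.0 CPM under IgG to 170.3 CPM (-0.94 ± 0.12 on the log2 scale, edgeR adjusted p = 0.00169), and Icam2, an adhesion molecule with a well-known Erg-dependent promoter, from 175 to 98.1 CPM (-0.84 ± 0.11, 0.00218). The receptors Tek (-1.31), Kdr (-0.80) and Tie1 (-0.51), nitric oxide synthase Nos3 (-1.42) and the tetraspanin Tspan18 (-0.98) were the others called lower. The guidance receptor Robo4 rose from 287 to 425 CPM (0.56 ± 0.13, adjusted p = 0.0327), a call missed without any of 9 single libraries (up to 0.0955). Tspan18 missed it without any of 7 (up to 0.102) and Nos3 without IgG 3 (0.0506). The list held 20 negative and 8 positive log2 fold changes. Cdh5 and Cldn5, regarded as direct Erg targets, were named after their values were seen. Cdh5, the junctional cadherin, was at 323 and 321.5 CPM (0.00, edgeR adjusted p = 0.984). Cldn5, a tight junction protein, went from 1655 to 1279 CPM (-0.37, 0.0503). Adjusted for the melanoma sum, Tek (adjusted p = 0.0229) and She (0.0464) passed of the 7 lower genes, and adjusted for the macrophage sum 0 did (Tek -0.95, She -0.97, both at an adjusted p of 0.105). Over all genes, 91 were called lower with the melanoma sum and 7 with the macrophage sum. The part of blood vessel endothelium, whose marker values are given above, was not tested here.

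Ratios of 2 factors within a library need no scaling between libraries, and 6 pairs were compared in this way. The ratio of Tal1 to its paralogue Lyl1 was 1.24 ± 0.16 on the log2 scale in IgG and 1.83 ± 0.22 in anti-Ang2 libraries. Every anti-Ang2 library (1.62 to 2.07) lay above every IgG library (1.05 to 1.42), a difference of 0.59 (exact permutation test, two-sided, p = 0.00794; 0.0476 after adjustment over 6 pairs, the smallest that 5 against 5 libraries can give). Erg to Fli1 went from -2.28 ± 0.18 to -2.61 ± 0.21, with overlapping groups (exact p = 0.0476, adjusted 0.143), so a different response of these paralogues was not shown. For Ets1 to Ets2 the difference was 0.05 (exact p = 0.659), for the neighbours Erg to Ets2 -0.20 (0.238) and Fli1 to Ets1 0.08 (0.794), and for the partners Tal1 to Lmo2 -0.09 (0.500). The Erg to Ets2 ratio lay within -2.15 to -2.03 in all IgG libraries and spread from -2.69 to -1.90 in anti-Ang2 libraries.

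**Figure D4:**
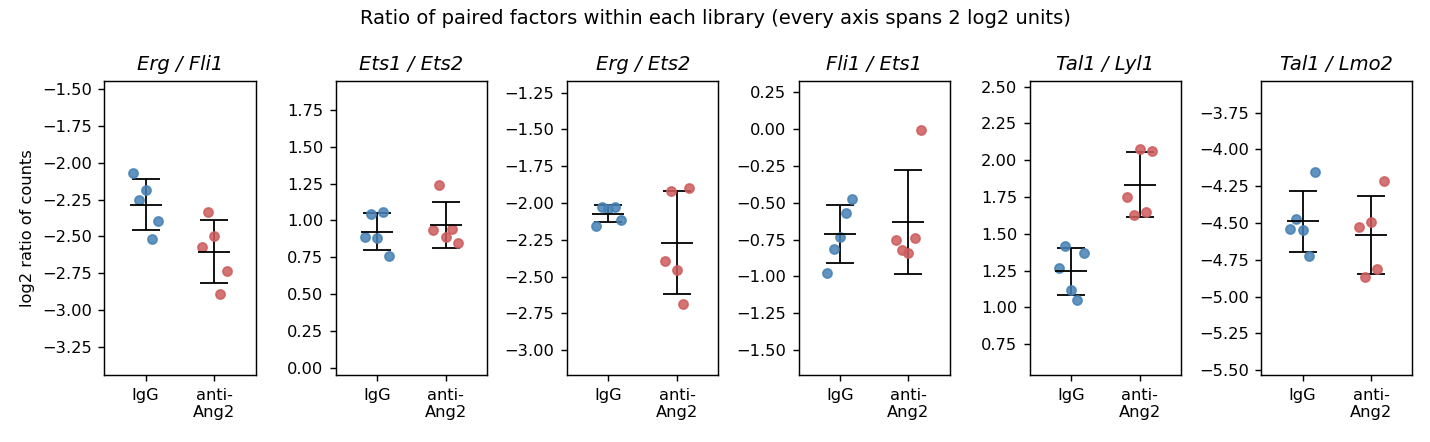
Log2 ratio of the counts of 2 factors within each library (y axis, each spanning the same width), IgG in blue and anti-Ang2 in red, with the mean and SD in black. The groups separate only in Tal1 to Lyl1, from 1.24 to 1.83, and Erg to Ets2 is narrow in IgG and wide in anti-Ang2 libraries.

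In the authors' deposited table Elk3, Zbtb46, Erg and Lyl1 had the lowest p of the 10: the adjusted p was 3.96e-07 for Elk3, 5.56e-05 for Zbtb46, 0.000699 for Erg and 0.00634 for Lyl1. It was 0.0813 for Hhex and from 0.398 to 0.948 for the other 5. Its log2 fold changes, -0.62, -0.88, -0.38 and -0.47 for the first 4, were closer to 0 than those computed here.

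**Figure D5:**
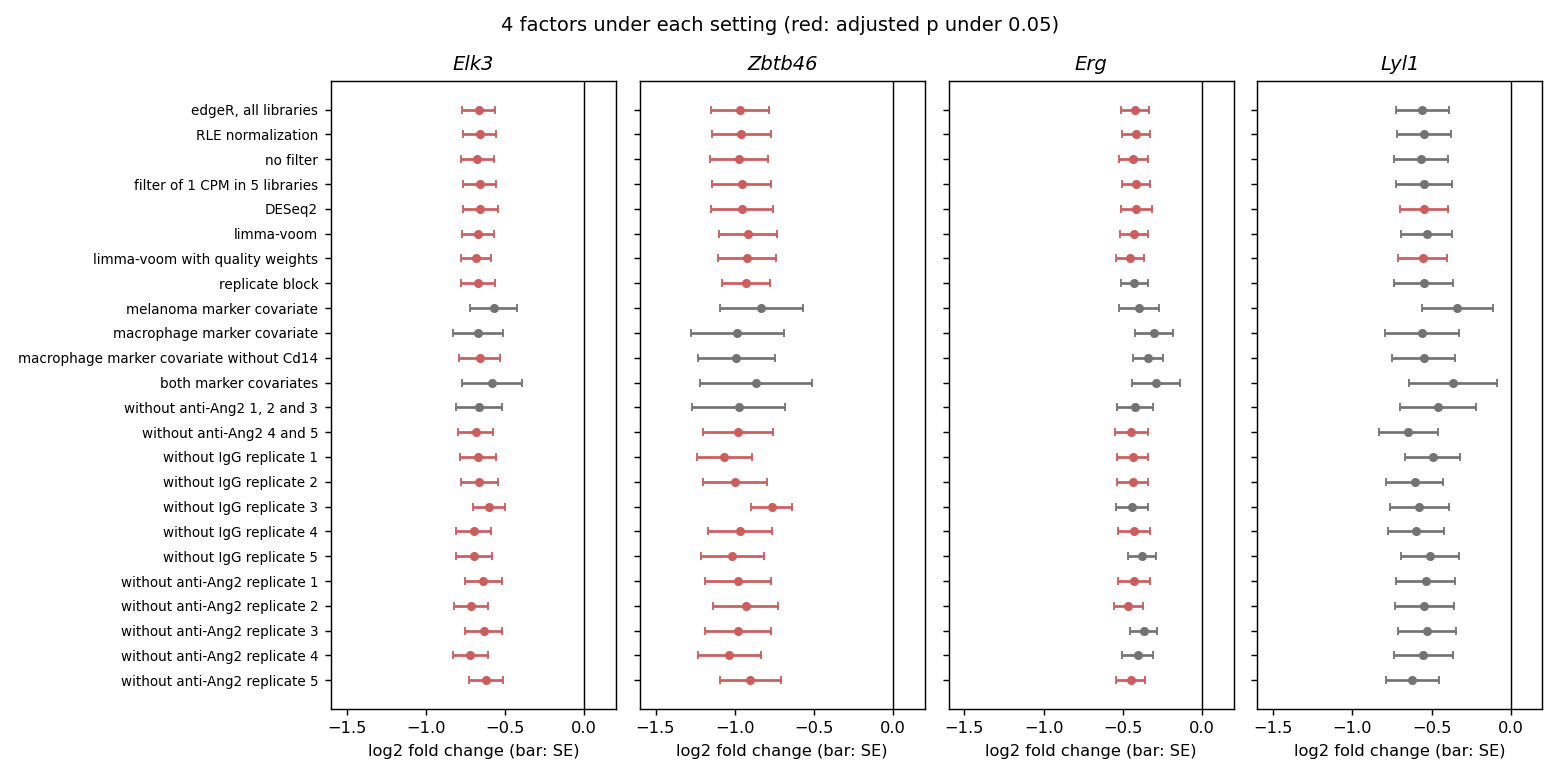
Log2 fold change (x axis, bar SE) of Elk3, Zbtb46, Erg and Lyl1 under each setting (rows), red where the adjusted p was under 0.05. All values are below 0, Elk3 between -0.72 and -0.57, and the calls end mainly where a marker sum is a covariate or anti-Ang2 1, 2 and 3 are left out.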

How the data were processed

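RNA of sorted tumour LEC from 10 mice (0.5 ng per library, SMART-Seq v4, which does not mark strand) was sequenced, per the labels' protocols. STAR, featureCounts, DESeq2 and mm10 are named in the submitters' processing notes, with versions not given in the sources used here. Per the file headers, the deposited table holds raw gene counts per library, which entered every test across genes. The deposited FPKM of the authors served for levels per length. The deposited TPM columns, a score whose sums exceed the total that defines TPM, and the authors' mean of scaled counts (baseMean, a signal) were not used. Log2 fold changes and p-values that the authors deposited are quoted where named. There were 0 unused columns of per-sample values. Libraries of 1 group all differed by more than counting noise (a chi-square over its degrees of freedom of at least 55.1).

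Groups came from the treatment label. Counts were tested with edgeR 4.0.16 in R 4.3.3 (quasi-likelihood, two-sided, TMM, filterByExpr set to 10 counts and 15 in total, treatment as the only factor); intervals are 95%, unadjusted, from the same fit. Ratios used counts plus 0.5 and an exact permutation test over 252 arrangements. limma 3.58.1 and DESeq2 1.42.0 were alternatives. Positions came from GENCODE M21 and promoters from RefSeq; IDs were matched without version. The design text calls the replicates independent; with 1 library per mouse, variation between mice and that of sorting and amplification cannot be separated. All 10 factors are named, with the called genes of 3 lists, at most 6 per direction by p; Tspan18, Cdh5, Cldn5, Spi1, Gata1, the PEA3 genes, Tcf3, Tcf4 and Ldb1 were named after their values were seen. The members and lists were chosen with earlier results of these data known. Python 3.11.15 with scipy 1.17.1, pandas 2.3.3, numpy 2.4.6 and matplotlib 3.10.9 was used.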

Additional observations from a re-analysis of the deposited data

Results flagged for a closer look

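Of 20 groups of 5 libraries (10 factors in 2 treatments), 4 held a library set apart from the other 4, where chance gives about 1 in 20. For Erg in IgG, the gap of the highest library (70.7 CPM, IgG 5; the group's lowest 59.85 and median 60.5) took 0.793 of the group's range. For Lyl1 in anti-Ang2 it was also the highest (6.43 CPM, anti-Ang2 5; median 5.30), with a share of 0.796. Lmo2 was set apart in both groups, by its highest IgG library (534 CPM, IgG 1; median 413.5; share 0.772) and its lowest anti-Ang2 library (399.8 CPM, anti-Ang2 1; median 478; share 0.770). Without IgG 1 the log2 fold change of Lmo2 was 0.22 (adjusted p = 0.201 by edgeR), and without IgG 5 that of Erg was -0.38.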

How the results depend on the processing

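The calls of Elk3 and Zbtb46 held under RLE scaling, both other filters, DESeq2, both limma fits, the replicate block, without anti-Ang2 4 and 5 and without each single library. Of the 10 factors 3 were lower in the reported fit and 2 to 3 without 1 library. With the melanoma sum, the macrophage sum, both sums as covariates or without anti-Ang2 1, 2 and 3, 0 were called. Over all genes 0 passed with both sums (1677 at an unadjusted p under 0.05), and 24 higher and 91 lower with the melanoma sum. With the macrophage sum 0 were higher and 7 lower, and without anti-Ang2 1, 2 and 3 these counts were 55 and 178. The macrophage list held Cd14, itself called higher (36.9 and 88.4 CPM in IgG and anti-Ang2). Without it, an alternative added after seeing the data, Elk3 alone was called lower (1; -0.66, adjusted p = 0.0415). The cause of these losses was not tested. Direction changed for Fli1 (0.15 with the macrophage sum, 0.045 without Cd14, 0.16 with both sums, 0.091 without anti-Ang2 1, 2 and 3) and for Tal1 (-0.0038 with quality weights, -0.077 without anti-Ang2 4 and 5, -0.093 to 0.12 without 1 library).

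The replicate numbers of the 2 groups did not pair the libraries (correlations of same-numbered deviations -0.125 to 0.113, 0 of 5 best matched by their own number). With the replicate block 2 factors were lower, Erg standing at -0.43 (adjusted p = 0.0588). The ETS target list had 0 higher and 4 lower, and the partner list 1 and 1. The reported counts were 1 and 7 for the targets, 2 and 2 for the partners, and 0 and 1 for the other ETS genes. Targets called higher were 2 with the stricter filter and both limma fits, 3 with DESeq2 and 0 in all 4 covariate fits and without anti-Ang2 1, 2 and 3. Targets called lower were 12 with DESeq2, 2 with the melanoma sum, 0 with the macrophage sum or both, 3 without Cd14 and 3 without anti-Ang2 1, 2 and 3. Partners were 1 and 1 with no filter or the macrophage sum without Cd14, 4 lower with DESeq2, and 0 and 0 with the melanoma, macrophage or both sums or without anti-Ang2 1, 2 and 3. Other ETS genes called higher were 1 with the stricter filter and 2 with DESeq2, quality weights or without anti-Ang2 4 and 5; 0 were lower with the melanoma, macrophage or both sums or without anti-Ang2 1, 2 and 3. Without 1 library, targets ranged over 0 to 1 higher and 5 to 9 lower, partners over 1 to 2 in each direction, and other ETS genes over 0 to 2 higher and 1 lower. The Tal1 to Lyl1 difference was 0.53 to 0.64 without 1 library, where 4 against 5 libraries cannot go below an adjusted p of 0.0952. That of Ets1 to Ets2 was -0.022 to 0.079 and that of Fli1 to Ets1 -0.077 to 0.14. The erythroid marker difference changed sign without 1 library (-2.22 to 0.516 CPM) and the platelet difference in FPKM (2.86).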

Other observations

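Pairs of factors were also compared for how they varied between mice of the same treatment, as deviations of log2 CPM from the group mean over 10 libraries. In all 6 pairs the exact permutation p adjusted over the pairs was above the threshold. The order of the pairs depended on the measure. Tal1 and Lyl1 came first by Pearson's r but not by Spearman's rho (Pearson r = 0.795, exact permutation p = 0.0170, adjusted 0.102; Spearman rho = 0.503, p = 0.169), with r = 0.856 within IgG and 0.757 within anti-Ang2. Without the 2 libraries farthest from the median of Tal1 (anti-Ang2 5 and IgG 5) r was 0.587. Ets1 and Ets2 had r = 0.743 (p = 0.0553, adjusted 0.134; rho = 0.576, p = 0.162), which fell to 0.275 without anti-Ang2 5 and anti-Ang2 4 and so rests on these libraries. Erg and Fli1 came first by rho (0.600, p = 0.0905; r = 0.562, p = 0.125, and 0.681 without IgG 5 and anti-Ang2 2), and Tal1 and Lmo2 had r = 0.605 (p = 0.0672; rho = 0.491, p = 0.166; r = 0.736 without anti-Ang2 5 and IgG 5). Fli1 and Ets1 went from r = 0.137 (p = 0.739; rho = 0.248, p = 0.509) to 0.829, the highest of the 6, without IgG 5 and anti-Ang2 5. Erg and Ets2, the neighbours on chromosome 16, had r = 0.911 within the IgG libraries and -0.524 within the anti-Ang2 libraries, over 5 libraries each. IgG 5 was the highest IgG library for both genes, at 70.7 CPM for Erg and 306 CPM for Ets2. The pooled r was -0.139 (exact permutation p = 0.744, with rho = -0.176, p = 0.656), and -0.342 without IgG 5 and anti-Ang2 2. The difference between the r values of the IgG and anti-Ang2 libraries was not tested.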
